A study of Arabidopsis thaliana with 29 samples.

Results

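Seedlings of *A. thaliana* that buffered Ca2+ in the cytosol and seedlings that buffered it in the nucleus were compared directly after methyl jasmonate (MeJA). Both genotypes are in the Col-0 ecotype and express parvalbumin, an animal protein that binds Ca2+ and so dampens its rise in the compartment that holds it. In *PV-NES* seedlings parvalbumin carries a nuclear export signal and stays in the cytosol, and in *PV-NLS* seedlings it carries a nuclear localization signal. The comparison took 6 of the 29 arrays of the study, 3 of *PV-NES* (lines 1, 7, 11) and 3 of *PV-NLS* (lines 4, 5, 8). It concerns the levels reached after MeJA, not the change from the untreated state, and the titles of the arrays alone chose its members.

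After 3 days of stratification and 3 days of growth at 22 °C (16 h light, 8 h dark), seedlings stayed on 50 µM MeJA for 5 days. Each array holds RNA of whole seedlings of 1 transgenic line, so the replicates of a genotype are lines. Nothing in the labels says that a line was sampled more than once per treatment. The promoter that drives parvalbumin is not given in the sources used here, and no probe set is named for the transgene, so its level could not be checked. The same lines were also grown without hormone (control), on 10 µM ABA and on 1 µM ACC (the ethylene precursor), with 3 arrays per genotype and treatment. Wild type (WT) has 1 array after MeJA, 1 each after ABA and ACC and 2 controls. No array offers a WT spread after MeJA, so WT values are given for orientation.

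Jasmonates are oxygenated lipid hormones that plants make on wounding. The receptor COI1 binds their isoleucine conjugate and removes JAZ repressors, which frees MYC transcription factors to switch on defence genes, while growth and photosynthesis genes are commonly lowered. Ca2+ rises in the cytosol and in the nucleus are read by calmodulin, calmodulin-like proteins (CMLs) and Ca2+-dependent kinases, which pass the signal to enzymes and transcription factors.

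Values are log2 signals of Affymetrix ATH1 arrays, so a difference of 1 is a 2-fold difference, and every difference below is *PV-NES* minus *PV-NLS* with its standard error (SE) or 95% interval from limma. A gene passed the test at an adjusted p under 0.05 over all 22588 genes and unnamed probe sets, and it was called where it also differed more than 2-fold. Pearson's r across all genes, which are not independent replicates, was 0.985 to 0.994 among the *PV-NES* arrays, 0.982 to 0.990 among the *PV-NLS* arrays and 0.980 to 0.995 between the genotypes, so these ranges overlapped. The leaf gene *RCA* and the root gene *PYK10* both had signals of 11.28 or above on all 6 arrays. A single gene per organ does not measure the parts of shoot and root RNA. In RNA of whole seedlings, fewer cells of a type and less RNA per cell cannot be told apart.

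One property of the arrays moved with the comparison. The mean deviation of genes over 3044 bases minus that of genes under 1400 bases was -0.08, 0.02 and -0.05 in *PV-NES* lines 1, 7 and 11, against -0.30, -0.28 and -0.10 in *PV-NLS* lines 4, 5 and 8. The WT MeJA array was at -0.05 and the 23 arrays outside the 6 ranged from -0.16 to 0.16, so *PV-NLS* lines 4 and 5 stood apart. Genes that passed as higher in *PV-NES* had a median length of 2996 bases (225 named genes), those that passed as lower 1578 bases (296) and all named genes with a length 2105 bases (13286). When each array was centred along gene length, 181 named genes passed as higher and 141 as lower, against 224 and 288 without it over the same genes. Under this centring the genes below were tested again where they had a length, which leaves out *RALFL22* and the unnamed probe sets, and those that no longer passed are named.

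**Figure D1:**
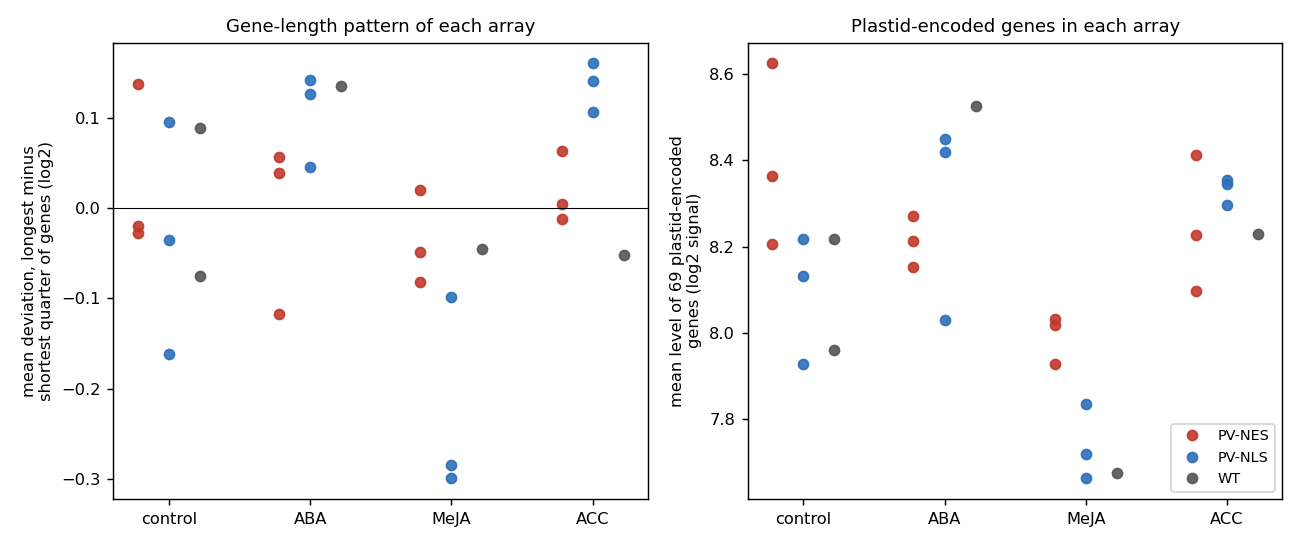
Left, the mean deviation from the gene means of genes over 3044 bases minus that of genes under 1400 bases (log2) in each of the 29 arrays, by treatment and genotype. Right, the mean log2 signal of the 69 plastid-encoded genes in the same arrays. After MeJA, *PV-NLS* lines 4 and 5 lay near -0.3 in the left panel, and all 3 *PV-NES* arrays lay above all 3 *PV-NLS* arrays in the right panel.

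After MeJA, 12 genes were called higher (0.0531% of those tested) and 9 called lower (0.0398%) in *PV-NES* than in *PV-NLS* seedlings, 21 in all (0.093%). With no fold threshold, 507 genes passed as higher (2.24%) and 447 as lower (1.98%), 954 in all (4.22%), with a median difference of 0.57 and -0.53. Most differences that passed were therefore below 2-fold. Of the 21 called genes, 11 carry the name of 1 gene, 6 of them higher and 5 lower. These numbers rest on variances pooled over the 12 groups of arrays, and they depended on single lines. Of the 21 called genes, 21 were called again without *PV-NES* line 1, 4 without line 7 and 4 without line 11, and 3, 10 and 19 without *PV-NLS* lines 4, 5 and 8. A fit of the 6 arrays alone called 0 genes by limma (smallest adjusted p = 0.277, with 3040 genes at an unadjusted p under 0.05), and the methods' t-test on them called 0. With the replicate number as a block on the 6 arrays, 1 gene was called. Of the 46 genes below that passed, 3 passed in each of the 6 fits that left out 1 array (*UGT76E12*, *PRK* and the probe set 253271_s_at), and the other 43 lost the test in 2 to 5 of them. Without both *PV-NLS* lines 4 and 5, which leaves 1 *PV-NLS* array that is assumed to vary like the other groups, 0 of the 46 passed.

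**Figure D2:**
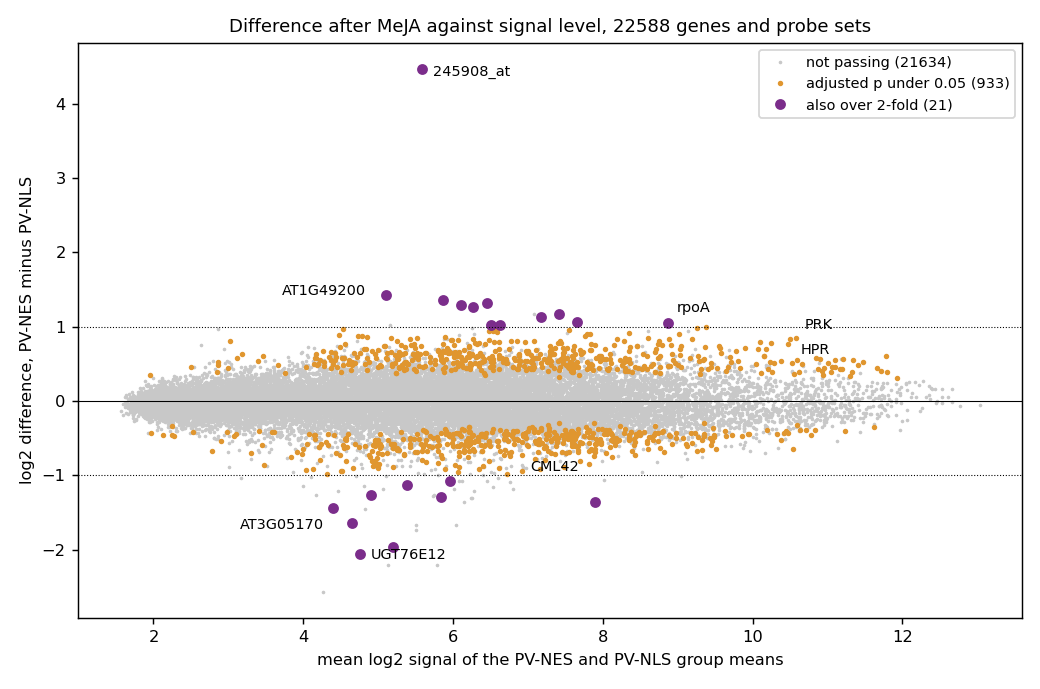
The log2 difference after MeJA, *PV-NES* minus *PV-NLS*, of each of the 22588 genes and probe sets against the mean log2 signal of the genotypes. Purple points are the 21 called genes, orange points the genes that passed with a smaller difference, and dotted lines mark 2-fold. The unnamed probe set 245908_at at 4.47 is the highest point, and *UGT76E12* at -2.06 is the lowest called one.

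The most marked named difference was in *UGT76E12*, a UDP-glycosyltransferase. Enzymes of this family attach sugars to small molecules such as hormones and flavonoids. Its log2 signal was 3.59, 4.36 and 3.22 in *PV-NES* lines 1, 7 and 11, against 5.62, 6.36 and 5.38 in *PV-NLS* lines 4, 5 and 8. All *PV-NES* arrays were below all *PV-NLS* arrays, as held for 10.2% of all genes, and the WT array lay between them at 4.28. The difference was -2.06 ± 0.27 (SE), or 4.17-fold lower, with an adjusted p of 0.0014 by limma. Over the fits without 1 array the adjusted p was 0.000122 to 0.0235, and without *PV-NLS* lines 4 and 5 the difference was -1.65 (adjusted p = 0.105). Without hormone the same gene averaged 2.48 in *PV-NES* and 2.75 in *PV-NLS* seedlings, so it was low in both genotypes before MeJA. Its *PV-NES* signals after MeJA were also below the array medians of 5.27 to 5.29, where the size of a fold is uncertain.

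The other named genes called lower have only a locus name in the annotation used here. *AT3G05170* had signals of 5.18, 2.98 and 3.31 in *PV-NES* and of 5.49, 5.48 and 5.43 in *PV-NLS* seedlings, and the WT array was at 5.51. *PV-NES* lines 7 and 11 were low and line 1 was close to the *PV-NLS* arrays, and the difference was -1.64 ± 0.40 (SE, adjusted p = 0.025). *AT4G30320* was at 6.02, 4.41 and 5.15, against 6.69, 6.74 and 6.02 (difference -1.29, adjusted p = 0.022). Line 1 of *PV-NES* overlapped line 8 of *PV-NLS*. *AT3G46280* was at 5.35, 3.97 and 5.16, against 5.72, 6.01 and 6.12 (difference -1.12, adjusted p = 0.048). *AT2G43600* was at 5.97, 4.38 and 5.92, against 6.78, 6.25 and 6.46 (difference -1.07, adjusted p = 0.041). In the last 3 genes line 7 was the lowest of the *PV-NES* arrays. Centred along gene length, *AT3G46280* and *AT2G43600* no longer passed (adjusted p = 0.051 and 0.062). Next below the threshold, *AT4G33720*, *AT2G47540* and *AT1G54890* differed by -1.46, -1.10 and -1.04 with adjusted p-values of 0.078, 0.051 and 0.075, and did not pass. Of the probe sets without a gene name, 251625_at (-1.96, adjusted p = 0.036) and 253271_s_at (-1.44, adjusted p = 0.0042) were the lowest.

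**Figure D3:**
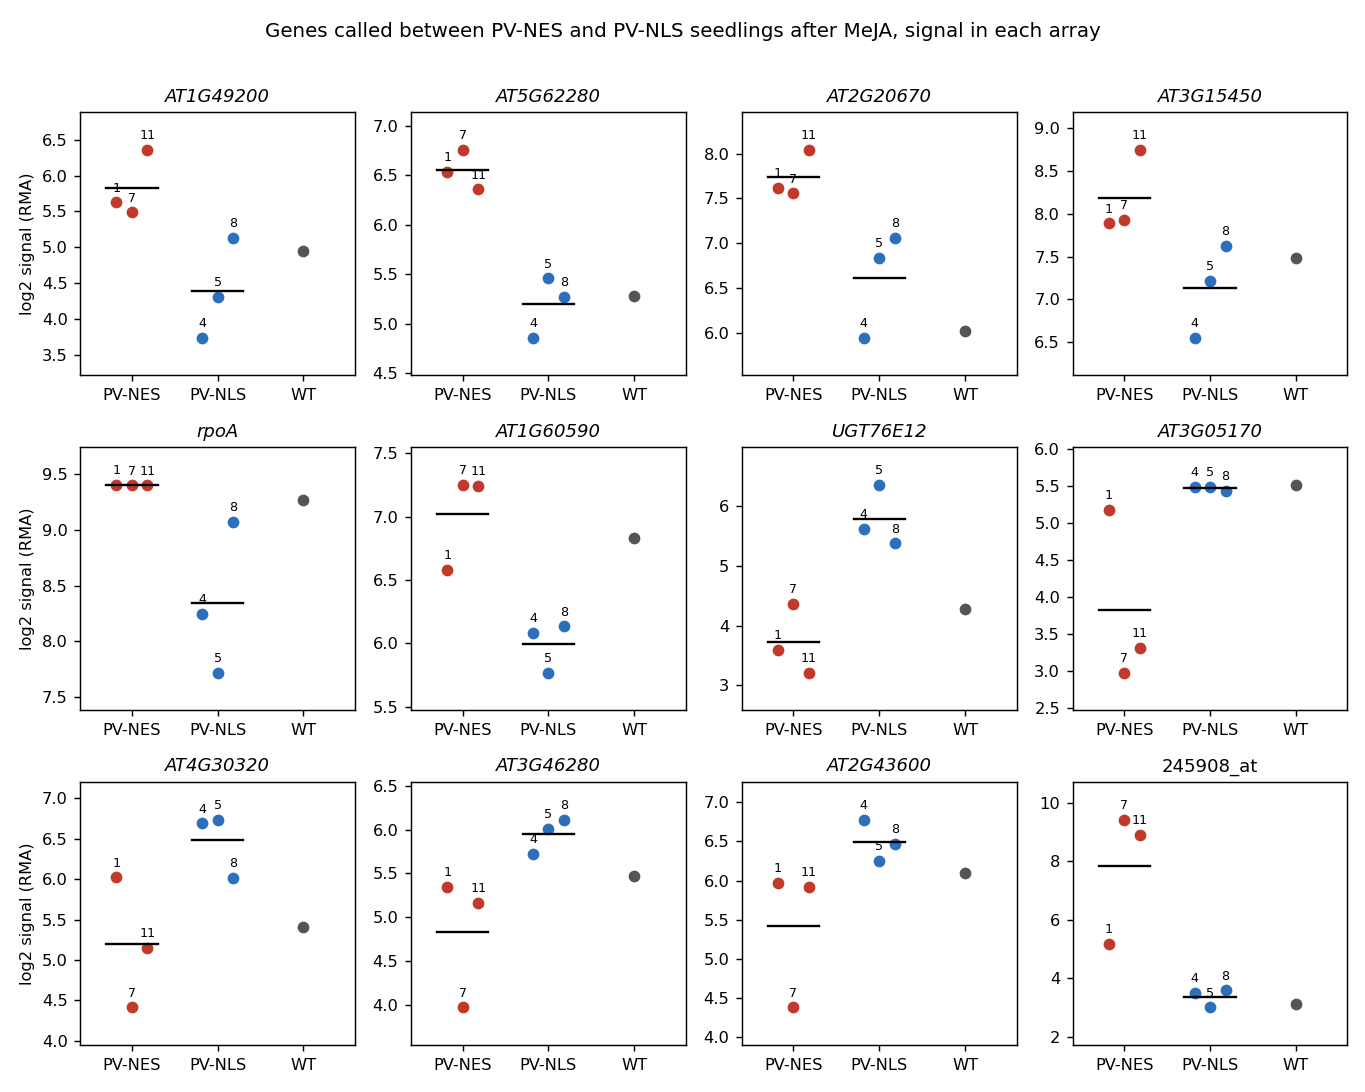
The log2 signal of the 11 named called genes and of the probe set 245908_at in each MeJA array of *PV-NES*, *PV-NLS* and WT seedlings. Points are arrays labelled by line, bars are group means, and each panel has its own axis, which does not start at 0. *AT4G30320* is the panel in which the transgenic groups overlap, and in *AT3G05170* and 245908_at line 1 lies apart from lines 7 and 11.

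Among the named genes called higher in *PV-NES* seedlings, *AT1G49200*, annotated by the study as a RING-H2 finger protein, was at 5.63, 5.49 and 6.36 in *PV-NES* lines 1, 7 and 11, against 3.74, 4.31 and 5.13 in *PV-NLS* lines 4, 5 and 8. RING fingers are common in enzymes that tag proteins with ubiquitin. The groups did not overlap, the WT array was at 4.94, and the difference was 1.43 ± 0.28 (SE, adjusted p = 0.012). *AT5G62280* was at 6.54, 6.75 and 6.36, against 4.86, 5.46 and 5.27 (difference 1.35, adjusted p = 0.014), with WT at 5.28. *AT2G20670*, annotated by the study as a putative sugar phosphate exchanger, was at 7.62, 7.56 and 8.04, against 5.95, 6.84 and 7.06 (difference 1.12, adjusted p = 0.015). *AT3G15450*, annotated as an aluminium-induced protein, was at 7.89, 7.93 and 8.74, against 6.55, 7.21 and 7.62 (difference 1.06, adjusted p = 0.028). In each of these 4 genes the WT array was nearer to the *PV-NLS* mean, and in WT these genes were lower after MeJA than in the controls, with log2 differences of -2.14 to -2.76 (adjusted p = 7.8e-06 to 0.0014). *AT1G60590* was at 6.58, 7.25 and 7.24, against 6.09, 5.77 and 6.14 (difference 1.03, adjusted p = 0.0093), with WT at 6.83. The unnamed probe set 260287_at was at 6.58, 7.50 and 7.23, against 5.35, 6.30 and 5.72 (difference 1.32, adjusted p = 0.0093).

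The unnamed probe set 245908_at had the highest difference. Its signals were 5.17, 9.41 and 8.90 in *PV-NES* lines 1, 7 and 11, against 3.50, 3.00 and 3.58 in *PV-NLS* lines and 3.13 in WT, a difference of 4.47 ± 1.02 (SE, adjusted p = 0.020). The difference was 3.85 in the control, 2.93 after ABA and 3.96 after ACC. In *PV-NES* lines 7 and 11 the probe set was between 7.76 and 8.60 in the control, ABA and ACC arrays, and in line 1 between 5.54 and 6.30. The *PV-NLS* lines 4 and 5 stayed between 3.03 and 3.97 there, line 8 reached 5.39 in the control and 6.71 after ABA, and the 5 WT arrays were between 3.02 and 4.61. *AT3G05170* was likewise low in lines 7 and 11 without MeJA, at 3.73 and 3.40 in the control, against 4.64 in line 1 and 4.74 to 5.20 in *PV-NLS* lines.

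Several genes of photosynthesis passed as higher in *PV-NES* seedlings. *PRK*, the Calvin cycle kinase that makes the acceptor of CO2, was at 10.86, 11.07 and 11.08 in *PV-NES* lines 1, 7 and 11, against 10.08, 9.99 and 10.39 in *PV-NLS* lines 4, 5 and 8. The groups did not overlap, the WT array was at 10.77, and the difference was 0.85 (95% interval 0.59 to 1.11, adjusted p = 0.0035). *HPR*, the hydroxypyruvate reductase of photorespiration, was at 10.48, 11.24 and 11.03, against 9.99, 10.23 and 10.03 (difference 0.83, adjusted p = 0.01). *RCA*, which keeps Rubisco active, was at 11.92, 12.21 and 12.13, against 11.28, 11.78 and 11.38 (difference 0.61, adjusted p = 0.0093). *SBPASE*, a phosphatase that regenerates the CO2 acceptor, was at 10.84, 10.97 and 10.91, against 10.37, 10.29 and 10.57 (difference 0.50, adjusted p = 0.017). In each of these 4 genes every *PV-NES* array was above every *PV-NLS* array, as held for 8.9% of all genes. They are 4 of the 5 measured genes of the Calvin cycle and photorespiration, where 1.68% of all named genes passed as higher. This list was drawn up after the data were seen, and only 5 of its 50 symbols were measured under a name. The remaining gene, *TPI*, differed by 0.02.

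Of 9 nuclear genes for photosystem subunits, light-harvesting proteins and Rubisco function, 4 passed as higher and 0 as lower, against 1.68% and 2.23% of all named genes. The 4 were *PRK* and *RCA*, which also count above, the antenna gene *LHCB4.2* (0.40, adjusted p = 0.035) and the photosystem II subunit gene *PSBY* (0.38, adjusted p = 0.046). The median difference of the 9 was 0.20, and *PSAN* and *PSBW* were at -0.03 and -0.02. Outside the list, *ATPC1*, a subunit of the chloroplast ATP synthase, was at 11.43, 11.73 and 11.70 in *PV-NES* and at 11.01, 11.08 and 11.13 in *PV-NLS* seedlings (difference 0.55, adjusted p = 0.0093). *NdhS*, a subunit of the chloroplast NDH complex, which returns electrons to the photosynthetic chain, also passed (0.46, adjusted p = 0.028). Centred along gene length, *PRK* differed by 0.87, *HPR* by 0.81, *RCA* by 0.59, *SBPASE* by 0.525 and *ATPC1* by 0.64, and all 5 still passed, as did *LHCB4.2*, *PSBY* and *NdhS* (adjusted p = 0.018, 0.024 and 0.019). Of 9 genes of chlorophyll and tetrapyrrole synthesis, 0 passed by limma (2 were higher at an unadjusted p under 0.05).

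Plastid-encoded genes had mostly positive differences, with more spread between lines. Of 69 measured, 5 passed as higher (7.25%) and 0 as lower, 59 had a positive difference, and the median was 0.22, against -0.02 over all named genes. In the untreated control the median of the same 69 was 0.25, and it was -0.06 after ABA and -0.04 after ACC. Many are transcribed together, so they are not 69 separate measurements. The mean signal of the 69 was 7.93, 8.02 and 8.03 in *PV-NES* lines 1, 7 and 11, against 7.72, 7.66 and 7.84 in *PV-NLS* lines 4, 5 and 8, and 7.68 in WT. The groups did not overlap, and the WT array lay among the *PV-NLS* arrays. *rpoA*, the alpha subunit of the plastid RNA polymerase, was at 9.40 on each *PV-NES* array and at 8.24, 7.72 and 9.07 on the *PV-NLS* arrays, with WT at 9.27 (difference 1.05, adjusted p = 0.021). *rps19*, for a ribosomal protein, was at 9.66, 10.04 and 9.91, against 8.63, 8.49 and 9.52 (difference 0.99, adjusted p = 0.029). The other 3 that passed were *ndhA* (0.73) and *ndhI* (0.44), for NDH subunits, and *cemA* (0.54), for an envelope protein. In *rpoA*, *rps19* and *ndhA*, line 8 of *PV-NLS* was close to the *PV-NES* arrays and lines 4 and 5 were low, and without lines 4 and 5 the differences were 0.33, 0.35 and 0.04 (adjusted p = 0.61, 0.64 and 0.95). All 5 still passed when centred along gene length (adjusted p = 0.019 to 0.044). The centring enlarged each of the 5 differences, for *rpoA* from 1.05 to 1.16, so it was a weak check of these genes. Without lines 4 and 5, *PRK* kept 0.61 and *RCA* 0.71 (adjusted p = 0.17 and 0.063). The photosystem gene *psaJ* differed by 1.17 and did not pass (adjusted p = 0.43). Of 16 mitochondrion-encoded genes, 0 passed by limma (1 was lower at an unadjusted p under 0.05), with a median of -0.04. The mitochondrial and chlorophyll lists were drawn up after the data were seen.

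**Figure D4:**
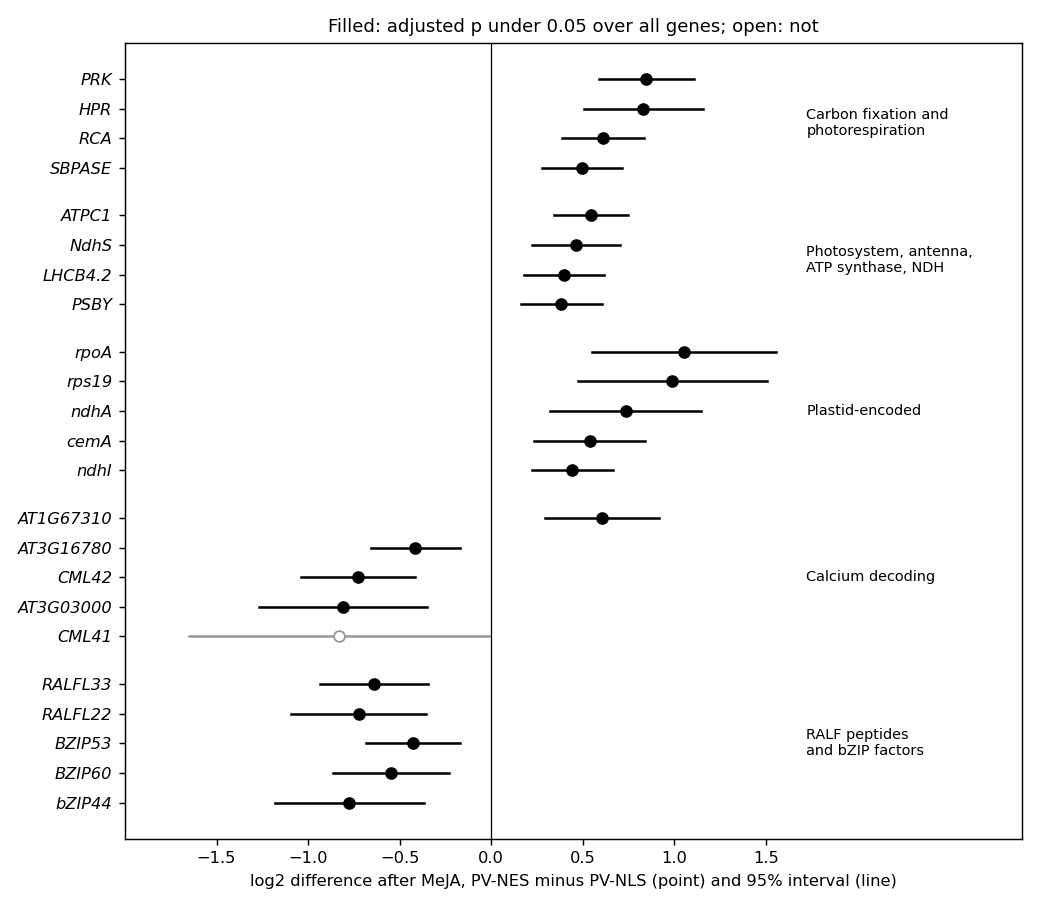
The log2 difference after MeJA, *PV-NES* minus *PV-NLS*, and its 95% interval from limma for genes of carbon fixation and photorespiration, the photosynthetic apparatus, the plastid genome, Ca2+ decoding, and RALF peptides with bZIP factors. Filled points passed at an adjusted p under 0.05, the open point (*CML41*) did not. The genes were shown because they passed or lead their list, so their direction is a description.

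Some genes that decode Ca2+ signals passed, where 1.68% of all named genes passed as higher and 2.23% as lower. Of the 232 loci on the study's list of such genes, 69 were measured under a name, and 1 passed as higher (1.45%) and 3 as lower (4.35%), with a median of -0.06. At an unadjusted p under 0.05, 3 of the 69 were higher and 15 lower, against 1115 and 1535 of the 13355 named genes. *CML42*, a calmodulin-like Ca2+ sensor, was at 6.62, 6.50 and 6.53 in *PV-NES* lines 1, 7 and 11, against 7.20, 7.62 and 7.02 in *PV-NLS* lines 4, 5 and 8, and 6.80 in WT. The groups did not overlap, and the difference was -0.73 (95% interval -1.04 to -0.41, adjusted p = 0.015). *AT3G03000*, which the study lists as the calmodulin-like *CML18*, was at 4.77, 3.96 and 4.83, against 5.43, 5.46 and 5.10 (difference -0.81, adjusted p = 0.040). *AT3G16780*, a ribosomal protein gene listed there as calmodulin-binding, differed by -0.41 (adjusted p = 0.048). *AT1G67310*, listed as a calmodulin-binding protein, was the one that passed as higher, at 6.64, 6.73 and 6.69, against 5.84, 5.88 and 6.53 (difference 0.60, adjusted p = 0.028). Line 8 of *PV-NLS* was again near the *PV-NES* arrays. Of the 7 genes named as CMLs, 6 had a negative difference, 1 passed and the median was -0.26. *CML41* had the lowest value of the 7, -0.83 (95% interval -1.65 to -0.01), and did not pass (adjusted p = 0.23). Without *PV-NLS* lines 4 and 5 its difference turned to 0.29. Of 8 glutamate receptor-like channel genes, 0 passed by limma (0 also at an unadjusted p under 0.05), and the median was 0.07.

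Under length centring *CML42* remained past the test (-0.62, adjusted p = 0.017), and *AT3G03000* (-0.70, adjusted p = 0.063), *AT3G16780* (-0.33, adjusted p = 0.12) and *AT1G67310* (0.48, adjusted p = 0.051) did not.

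A few genes of secreted peptides and transcription factors passed as lower in *PV-NES* seedlings. RALF peptides are secreted signals that alkalinise the cell surroundings and restrain growth. Of 11 measured *RALF* genes, 2 passed as lower (18.2%, against 2.23% of all named genes) and 10 had a negative difference, with a median of -0.395. *RALFL22* was at 8.56, 7.52 and 8.11 in *PV-NES* lines 1, 7 and 11, against 8.67, 8.97 and 8.73 in *PV-NLS* lines 4, 5 and 8 (difference -0.72, adjusted p = 0.027). *RALFL33* was at 9.38, 8.90 and 9.30, against 9.88, 9.90 and 9.73 (difference -0.64, adjusted p = 0.019). Both families here, *RALF* and *bZIP*, were listed after the data were seen. Of 14 *bZIP* factors 3 passed, all lower (21.4%), while 9 had a positive difference and the median of the 14 was 0.05. The 3 were *bZIP44* (-0.78, adjusted p = 0.030), *BZIP60* (-0.55, adjusted p = 0.045), a factor of the endoplasmic reticulum stress response, and *BZIP53* (-0.43, adjusted p = 0.0499). *GRX480*, a glutaredoxin that binds TGA transcription factors, was at 7.26, 7.33 and 7.26, against 7.81, 8.22 and 7.66 (difference -0.61, adjusted p = 0.014). The cold-regulated gene *COR27* differed by -0.90 (adjusted p = 0.033). The histone H2B gene *HTB1* differed by -0.48 (adjusted p = 0.030) and was the only one of 9 histone and cell cycle genes to pass, 8 of which had a negative difference. Centred along gene length, *RALFL33* (-0.53, adjusted p = 0.028), *GRX480* (-0.51, adjusted p = 0.019) and *COR27* (-0.86, adjusted p = 0.043) still passed, and *bZIP44*, *BZIP60*, *BZIP53* and *HTB1* did not (adjusted p = 0.056, 0.079, 0.11 and 0.088).

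Of 47 UDP-glycosyltransferase genes, 1 passed as lower, *UGT76E12* (2.13%), and 2 as higher (4.26%), against 2.23% and 1.68% of all named genes. *UGT74D1*, which glycosylates auxin metabolites, was at 7.22, 7.54 and 7.67 in *PV-NES* and at 6.48, 6.86 and 6.69 in *PV-NLS* seedlings (difference 0.80, adjusted p = 0.012). *UGT74B1*, an enzyme of glucosinolate synthesis, was at 9.09, 9.09 and 9.18, against 8.12, 8.28 and 8.67 (difference 0.76, adjusted p = 0.030), and it was the 1 of 5 measured glucosinolate genes to pass. *WES1*, which joins auxin to amino acids, was also higher (0.81, adjusted p = 0.042), and of 17 auxin response genes *IAA20* passed as lower (-0.42, adjusted p = 0.047). Of 51 genes of expansins, xyloglucan and pectin enzymes and related families, *TBL45* passed as higher (0.40, adjusted p = 0.043) and *TBL39* as lower (-0.53, adjusted p = 0.036). Centred along gene length, *WES1*, *IAA20* and *TBL45* no longer passed (adjusted p = 0.052, 0.11 and 0.11), and *UGT74D1*, *UGT74B1* and *TBL39* did (adjusted p = 0.012, 0.025 and 0.043). The root hair expansins *EXPA18* and *EXPA7* differed by -1.08 and -0.73 and did not pass (adjusted p = 0.092 and 0.068). With *PYK10* at 0.11 they make up the 3 measured root genes, and the part of root RNA in the results was not tested.

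In the few jasmonate genes measured under a name, no difference was detectable. Of 11 measured genes of jasmonate synthesis, catabolism, perception and induced defence, and of 4 jacalin-related lectins, 0 of the 15 passed by limma (1 was higher at an unadjusted p under 0.05), with differences between -0.37 and 0.49 (smallest adjusted p = 0.13). With 4.22% of all genes passing, a count of 0 in 15 is near the background. *THI2.1*, a thionin gene that jasmonate induces strongly, was at 11.23, 11.61 and 11.42 in *PV-NES* lines 1, 7 and 11, against 11.27, 11.29 and 11.58 in *PV-NLS* lines 4, 5 and 8, and 11.27 in WT. The groups overlapped, and the difference of 0.04 had a 95% interval of -0.45 to 0.53. The gene averaged 3.06 in the *PV-NES* and 3.21 in the *PV-NLS* controls, so it was far lower without MeJA in both genotypes. *JRG21*, for an oxidase that inactivates jasmonate, was at 10.42, 10.41 and 10.42, against 9.79, 10.67 and 9.98 (difference 0.27, 95% interval -0.26 to 0.79). The transcription factor genes *MYC3* and *MYC4* differed by 0.18 and 0.11. *PDF1.2*, a defensin gene, varied too much between lines to be read, at 3.83, 3.72 and 6.01, against 6.83, 5.03 and 2.82, and its interval was -2.29 to 1.54. The carboxypeptidase-like gene *scpl30*, higher by 7.40 in the WT MeJA array than in the WT controls (adjusted p = 7.05e-15), was at 9.84, 9.61 and 10.31 in *PV-NES*, against 9.13, 8.94 and 9.54 in *PV-NLS* seedlings (difference 0.71, adjusted p = 0.027). Of 17 genes that the study singled out for MeJA, 8 were measured under a name. Of these 8, 0 passed by limma (0 also at an unadjusted p under 0.05), with differences of -0.47 to 0.43. With 4.22% of all genes passing, 0 in 8 is also near the background. The study sorted its MeJA-responsive genes by setting each transgenic genotype against WT, and classed some as regulated by Ca2+ in both compartments. Such genes need not differ in level from 1 transgenic genotype to the other, so this count does not test the study's selection.

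The same difference was measured in the other treatments, on other arrays of the same lines. Without hormone 0 genes passed by limma (1846 at an unadjusted p under 0.05, smallest adjusted p = 0.20), after ABA 1, lower (0.00443%), and after ACC 2, 1 in each direction (0.00443% each). After MeJA 9.97% of all genes were higher and 10.8% lower at an unadjusted p under 0.05. The 21 called genes had the same sign in the control in 21 cases, after ABA in 11 and after ACC in 15, and of the 954 genes that passed, 91.2% had the same sign in the control, 30.1% after ABA and 35.8% after ACC. Over all genes these shares were 64.8%, 41.8% and 44.8%. The median difference of the 507 higher genes was 0.57 after MeJA, 0.18 in the control, -0.08 after ABA and -0.05 after ACC. These genes were chosen by their difference after MeJA, so the medians are a description.

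**Figure D5:**
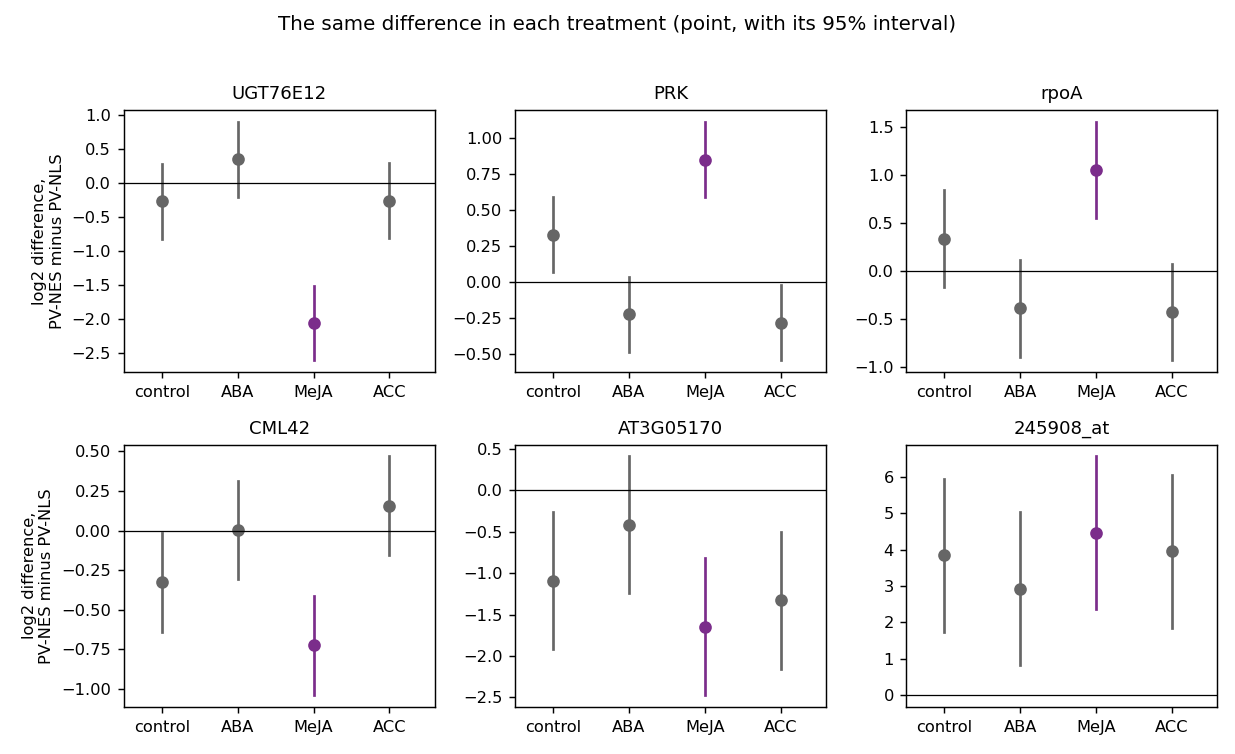
The log2 difference, *PV-NES* minus *PV-NLS*, and its 95% interval from limma in the control, after ABA, after MeJA (purple) and after ACC. *UGT76E12*, *PRK*, *rpoA* and *CML42* lie farthest from 0 after MeJA, while 245908_at lies above 0 in all 4 treatments. Each panel has its own axis.

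Whether the MeJA difference exceeded that of another treatment was tested by interaction contrasts. Against the control, 0 genes passed by limma (1264 at an unadjusted p under 0.05, 5.6% of all, and smallest adjusted p = 0.86), so no gene is shown to differ more after MeJA than without hormone. With array weights 53 genes were called in this contrast. For *UGT76E12* this interaction was -1.79 (unadjusted p = 8.6e-05, adjusted p = 0.86), and for *PRK* 0.52 (unadjusted p = 0.0079). Against ABA, 241 genes passed upwards (1.07%) and 223 downwards (0.987%), and against ACC 129 (0.571%) and 52 (0.23%). *PRK* and *UGT76E12* were chosen by their MeJA difference, and the same MeJA arrays enter these contrasts. *PRK* differed by 1.07 more after MeJA than after ABA (adjusted p = 0.016) and by 1.13 more than after ACC (adjusted p = 0.012). For *UGT76E12* these values were -2.41 (adjusted p = 0.013) and -1.80 (adjusted p = 0.036). The length pattern of the arrays also differed there, with *PV-NES* at -0.12 to 0.06 and *PV-NLS* at 0.05 to 0.14 after ABA, and *PV-NES* at -0.01 to 0.06 and *PV-NLS* at 0.11 to 0.16 after ACC. Its part in these counts was not tested.

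WT gave no common side. Of the 12 genes called higher in *PV-NES* seedlings, the WT MeJA array was nearer to the *PV-NES* mean in 2 and nearer to the *PV-NLS* mean in 10, and of the 9 called lower it was nearer to *PV-NES* in 5 and to *PV-NLS* in 4. It lay between the means in 14 of the 21, against 6628 of all 22588 genes. The 21 were chosen for a wide gap between these means, with a median of 1.287 against 0.151 over all genes. A value falls inside a wide gap more easily, so nothing is read from these counts. WT was nearer to *PV-NES* in 287 of the 507 genes that passed as higher and in 254 of the 447 that passed as lower. Against that single array, 8 genes were called higher (0.0354%) and 2 lower (0.00885%) in *PV-NES*, and 3 higher (0.0133%) and 6 lower (0.0266%) in *PV-NLS* seedlings. The WT MeJA array itself differed from the WT controls in 652 genes called higher (2.89%) and 491 called lower (2.17%). For *PRK* the WT array was close to the *PV-NES* arrays and for the mean of the plastid-encoded genes it was close to the *PV-NLS* arrays.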

How the data were processed

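The authors deposited log2 signals of 29 ATH1 arrays, normalized together by RMA (background correction, quantile normalization and probe set summary), per the labels and the methods; the RMA version and the array build are not given in the sources used here. These values were used as deposited. Control probe sets (64) were left out. Where a named gene had several probe sets (147 genes), the 1 with the highest mean over all arrays was kept. This left 22588 genes and unnamed probe sets, 13355 of them under a gene name. Of 22810 probe sets, 13513 had 1 gene, 503 several and 8730 none; symbols were updated from RefSeq (TAIR10.1), which also gave gene lengths. Signals ranged from 1.35 to 13.26. The number of arrays limits the precision.

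A model of the 12 groups was fitted in R 4.3.3 (limma 3.58.1), using moderated variances and Benjamini-Hochberg adjustment over all 22588, and all adjusted p-values are from limma. The same fit was also run on simulated signals with independent noise. These held no line effects and no gene-length pattern, so that run does not show how the model handles such features. The p-values rest on a variance per gene pooled over the 12 groups, in which each line enters once per treatment as a separate array. They measure that pooled spread, not the spread between lines after MeJA alone. The deviations of same-numbered arrays of the genotypes correlated at 0.138, 0.435 and 0.161, so the replicate number was also fitted as a block, although the numbers name different lines. Cross-numbered arrays correlated at -0.38 (*PV-NES* line 1 with *PV-NLS* line 5) to 0.288 (line 1 with line 8), which overlaps these values. The alternatives were the 6 arrays alone, replicate and line blocks, an intensity trend, array weights, the methods' t-test, signal filters, other normalizations, leaving out arrays, and, chosen after seeing the data, centring along gene length.

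Genes were named by a rule: up to 12 of the highest and lowest called genes, filled to 8 by unadjusted p among genes over 2-fold, up to 2 members of each list, up to 2 unnamed probe sets per direction, and genes that the study names for MeJA. Further genes that passed were named after their values were seen. The genes, lists and tests were chosen with earlier results of these data known. Symbols that belong to another gene were removed from the lists.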

Additional observations from a re-analysis of the deposited data

Results flagged for a closer look

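The results named here passed a test (limma, adjusted p under 0.05) of whether the difference *PV-NES* minus *PV-NLS* was unequal after MeJA and after another treatment of the same lines. These contrasts with ABA and ACC were added after the data were seen, and the same contrast with the control passed for 0 genes (1264 at an unadjusted p under 0.05). Each value is the MeJA difference minus the other difference, on the log2 scale. The genes named here were first named for their MeJA difference, and the same MeJA arrays enter these contrasts. The values are therefore a description. The gene-length pattern also changed between treatments, with *PV-NLS* arrays at -0.30 to -0.10 after MeJA, 0.05 to 0.14 after ABA and 0.11 to 0.16 after ACC. Its part in these values was not tested.

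Against ABA, 1.07% of all genes passed with a more positive difference after MeJA and 0.987% with a more negative one. Of the 9 nuclear photosystem, light-harvesting and Rubisco genes, 2 passed as more positive, *PRK* and *RCA*, and 0 as more negative. Of the 69 plastid-encoded genes, 2 passed as more positive, *rpoA* and *rps19*, and 0 as more negative. Of the 69 Ca2+-decoding genes, 0 passed as more positive and 3 as more negative. Among the named genes the value was 1.07 for *PRK*, 0.84 for *HPR*, 0.68 for *RCA*, 0.69 for *SBPASE*, 0.67 for *ATPC1* and 0.67 for *NdhS*. It was 1.44 for *rpoA* and 1.49 for *rps19*, and 1.48 for *AT1G60590*. The difference was more negative after MeJA than after ABA for *UGT76E12* (-2.41), the probe set 253271_s_at (-1.65), *AT3G46280* (-1.90), *AT3G03000* (-1.37), *RALFL22* (-1.12), *RALFL33* (-1.07) and *GRX480* (-0.85).

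Against ACC, the value was 1.13 for *PRK*, 0.93 for *HPR* and 0.59 for *ATPC1*, and 1.48 for *rpoA* and 1.60 for *rps19*. It was -1.80 for *UGT76E12*, -1.48 for 253271_s_at and -0.88 for *CML42*.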

How the results depend on the processing

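Of 62 genes named in the text, the 46 that passed kept their sign under every alternative run, and 9 of the others turned it in 22 values. Without *PV-NLS* lines 4 and 5 the difference became 0.29 for *CML41*, 1.70 for *PDF1.2*, 0.12 for *PSAN*, -0.007 for *TPI*, -0.16 for *THI2.1*, -0.29 for *MYC4*, -0.051 for *PYK10* and -0.015 for *MYC3*. Centred along gene length it became 0.075 for *PSAN*, 0.08 for *PSBW* and -0.015 for *TPI*, with array weights 0.009 for *PSBW*, and with quantile normalization -0.014 for *TPI*. Leaving out 1 array gave -1.41 to 0.59 for *PDF1.2*, -0.11 to 0.01 for *PSAN*, -0.063 to 0.039 for *PSBW*, -0.054 to 0.14 for *THI2.1* and -0.012 to 0.305 for *MYC4*. The count of 21 called genes was 24 with an intensity trend, 24 with each array centred on its median, 20 over genes above the median signal, 21 with every probe set alone and 21 with the line as a random block. With no fold threshold it was 954, with array weights 165, with the 6 arrays alone 0, with quantile normalization of those arrays 0, by the methods' t-test 0 (2444 at an unadjusted p under 0.05), with the replicate number as a block (the pairing) 1, centred along gene length 9 (11 on the same genes without centring), and without *PV-NLS* lines 4 and 5 it was 2. Leaving out 1 array gave 4 to 120 genes. The difference from the control, 0 genes, was 53 with array weights, and leaving out 1 array gave 0 to 2. The causes were not tested. Low signals near the floor of the arrays, as for *UGT76E12* in *PV-NES* seedlings, limit the size of a fold.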

Other observations

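Genes that MeJA moved in WT were counted in the comparison of the genotypes. These classes were formed after the data were seen, from the lone WT MeJA array and 2 WT controls. Those arrays do not enter the difference, but both tests used the same variance per gene, so they are not independent. Of 652 genes called higher in WT after MeJA, 6 passed as higher in *PV-NES* than in *PV-NLS* seedlings and 19 as lower (2.91%), with a median difference of -0.08. Of 491 genes called lower in WT, 33 passed as higher (6.72%) and 5 as lower, with a median of 0.11. Among the 21445 other genes, 2.18% passed as higher and 1.97% as lower. The mean signal of the 652 was 7.44, 7.02 and 7.33 in *PV-NES* lines 1, 7 and 11, against 7.33, 7.24 and 7.49 in *PV-NLS* lines 4, 5 and 8, and 7.45 in WT. The mean signal of the 491 was 6.06, 6.34 and 6.19, against 6.09, 6.27 and 5.87, and 5.95 in WT. Both means overlapped between the genotypes.

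The families given next had 0 members that passed by limma, where 4.22% of all genes passed, so a count of 0 in lists of this size is near the background. Of 14 glutathione S-transferase genes 11 had a negative difference (3 lower at an unadjusted p under 0.05), with a median of -0.18. The median was -0.07 over 22 cytochrome P450 genes (1 higher and 3 lower at an unadjusted p under 0.05) and -0.35 over 7 class III peroxidases (1 higher and 2 lower). All 5 measured ABA- and drought-induced genes had a negative difference, with a median of -0.30, as had all 5 seed and embryo genes, with a median of -0.19 (0 at an unadjusted p under 0.05 in either list). Over all named genes, 7249 of 13355 had a negative difference. These lists hold 36 and 38 symbols, so the 5 measured in each are too few to read a direction. Over 6 flavonoid genes the median was 0.14 (0 at an unadjusted p under 0.05).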
